A study of Danio rerio with 15 samples.

Results

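The genes described here are the arterial Notch signalling genes of sorted zebrafish endothelium: the ligands dll4, dlc and jag2b, the receptors notch1b and notch3, the receptor-cutting proteases adam10b and ADAM17, the nuclear factor RBPJ, the target gene hey2 and the arterial ligand efnb2a. They were chosen by name, as rows of the count table whose gene name is 1 of 10 listed names. The gene name table used here matched 8 of the names to 9 rows, since ADAM17 stood on a pair of rows. RBPJ also stood on a pair of rows, but the choice fixed 1 of them, and the other, described below, is not among the 13. The gene name table held notch1b and efnb2a under the human-style symbols NOTCH1 and EFNB2, on a pair of rows each, and did not say which row is which zebrafish copy, so all 4 were described under those symbols. This gave 13 rows of 32105 in the table, and all 13 were among the 18020 genes that passed the filter on low counts. NOTCH1 row A is ENSDARG00000052094 and row B ENSDARG00000103554, ADAM17 row A is ENSDARG00000043213 and row B ENSDARG00000093093, and EFNB2 row A is ENSDARG00000020164 and row B ENSDARG00000074050. RBPJ is ENSDARG00000052091, dll4 is ENSDARG00000070425, hey2 is ENSDARG00000013441 and adam10b is ENSDARG00000015502.

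Cells positive for kdrl, a receptor of vascular endothelial growth factor, were sorted from embryos 28 hours after fertilization, and their poly(A) RNA was sequenced. The embryos were sf3b1 mutants, siblings of the mutants or wildtypes, and every embryo overexpressed Stat3, in the constitutively active form (CA-Stat3) or the wildtype form (WT-Stat3). Each genotype had 3 libraries with CA-Stat3 and 2 with WT-Stat3, so that 15 libraries fell into 6 groups, and no library without Stat3 overexpression was analysed here. The labels give neither the sf3b1 allele, the siblings' own alleles, the sequence or driver of the Stat3 constructs, nor the reporter line used for the sort. Sf3b1 is a core subunit of the spliceosome part that recognises intron branch points. Stat3 is a transcription factor of cytokine signalling. Whether the replicates of a group derive from different clutches or sort days is not stated, so a p-value speaks only for the spread among these libraries, part of which may be technical.

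Notch signalling passes between touching cells. A Delta or Jagged ligand on one cell pulls on a Notch receptor of its neighbour, an ADAM metalloprotease and then gamma-secretase cut the receptor, and the freed intracellular domain joins Rbpj on DNA to switch on target genes such as those of the Hey and Hes repressors. In embryonic vessels the pathway favours arterial over venous identity, restrains sprouting through Dll4 and is needed for the blood-forming endothelium of the dorsal aorta. In zebrafish, hey2 is the gridlock gene, whose loss disrupts the assembly of the aorta, and ephrin-B2 is the arterial partner of the venous receptor EphB4.

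Library totals ran from 3625121 to 4537227 counts in mutants with WT-Stat3, the shallowest group, and from 5161557 to 8170371 in the other groups. SF3B1 averaged 96.2 ± 10.6 CPM (counts scaled to a common library size, after TMM scaling) in mutants, 164 ± 7.0 in siblings and 193 ± 15.3 in wildtypes (SD, n = 5 each), with every mutant library below every other. The sort marker kdrl averaged 766 ± 175 CPM in mutants, 545 ± 145 in siblings and 673 ± 106 in wildtypes. STAT3 (the labels do not say whether RNA of the constructs counts towards this row) averaged 282 ± 74.9 CPM in mutants, 341 ± 101 in siblings and 267 ± 75.9 in wildtypes. The sort also held RNA of other cells. The 18 tested rows of a list of macrophage and neutrophil genes were summed. Their level was 179 to 641 CPM in mutants, 1169 to 3046 in siblings and 1386 to 2770 in wildtypes. The 13 tested rows of a mural and mesenchymal list summed to 373 to 474 CPM in mutants, 738 to 1712 in siblings and 1163 to 1878 in wildtypes. The pericyte marker PDGFRB, on that list but not tested, had 0 counts in all 15 libraries. The parts of these other cells in the Notch gene levels were not tested, and in bulk RNA fewer cells of a type and less RNA per cell cannot be told apart.

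In mutants the listed row of the nuclear factor RBPJ, the protease copy adam10b and the ligand dll4 fell relative to wildtypes, the target hey2 and ADAM17 row A rose, and no receptor row passed the test. A second RBPJ row and adam10a, the other ADAM10 copy, stood at higher levels and did not pass relative to wildtypes, as given below. Over both constructs, the listed RBPJ row averaged 9.13 ± 2.84 CPM in mutants and 22.5 ± 2.69 CPM in wildtypes (SD, n = 5 each, as for the other means given by genotype). adam10b averaged 18.6 ± 2.14 CPM in mutants and 32 ± 1.25 CPM in wildtypes, and dll4 averaged 81.5 ± 16.8 CPM in mutants and 165 ± 70.9 CPM in wildtypes. hey2 averaged 63.9 ± 25.5 CPM in mutants and 25.8 ± 6.95 CPM in wildtypes, and ADAM17 row A averaged 142 ± 35.7 CPM in mutants and 74.1 ± 9.69 CPM in wildtypes. These were the 5 of 13 rows that passed an edgeR quasi-likelihood test with a Benjamini-Hochberg (BH) adjusted p under 0.05 over all genes, 2 higher and 3 lower in mutants. The share, 38.5%, stands beside 28.7% of all genes called in that comparison, of which 13.9% of genes were higher and 14.8% lower, and the median log2 fold change was -0.11 over the 13 rows and -0.03 over all genes tested. Against siblings, 4 of 13 rows passed (30.8%, beside 26.2% of all genes, 12.4% higher and 13.9% lower): hey2 and ADAM17 row A rose and RBPJ and adam10b fell. Shares this near to those of all genes are no result about the 13 rows as a set. The median log2 difference of mutants from siblings was -0.03 over the 13 rows and -0.02 over all genes. Both contrasts use the same 5 mutant libraries, so they are not independent of each other. Where the libraries of a group are said below to lie clear of others, the share of all genes that did so was not counted. Such separations are therefore no result about these rows.

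**Figure D1:**
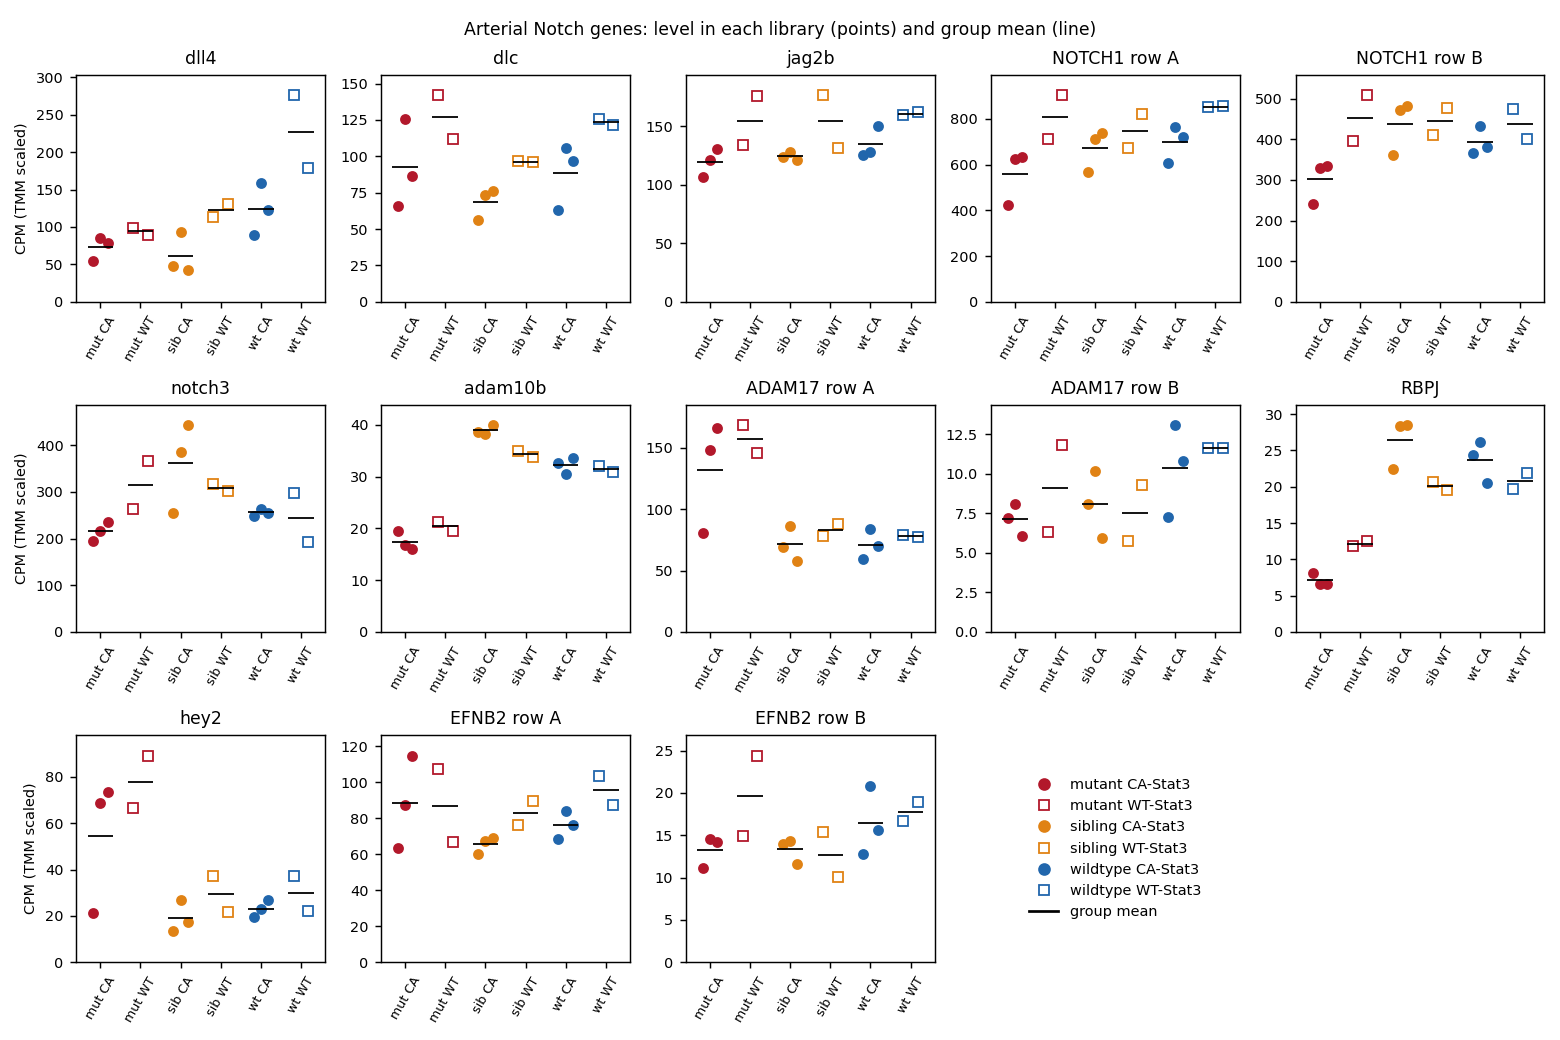
Level of each of the 13 Notch rows in CPM (y axis, starting at 0) in each library (points) by group (x axis), with group means as black lines; mut, sib and wt are mutant, sibling and wildtype, CA and WT the Stat3 construct. RBPJ and adam10b are lower in all 5 mutant libraries than in the 10 others, and 4 of 5 mutant libraries have hey2 at 66.8 to 89.2 CPM, above all other libraries. The share of all genes that separate in this way was not counted.

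The ligand dll4, which endothelial tip cells and arteries present to their neighbours, had 54.5, 85.1 and 79.2 CPM in mutants with CA-Stat3 and 99.2 and 89.6 CPM in mutants with WT-Stat3. It had 47.3, 92.9 and 42.9 CPM in siblings with CA-Stat3 and 113 and 131 CPM in siblings with WT-Stat3. Wildtypes had 89.3, 159 and 123 CPM with CA-Stat3 and 276 and 179 CPM with WT-Stat3. Within each construct every mutant library lay below every wildtype library, and wildtypes with WT-Stat3 stood clear of all other groups. dll4 fell in mutants relative to wildtypes by 1.02 ± 0.23 on the log2 scale (SE, edgeR BH-adjusted p = 0.00313). Mutants and siblings differed by -0.06 ± 0.22 (edgeR BH-adjusted p = 0.872), and siblings with CA-Stat3 held the lowest single values. Sibling dll4 thus averaged near the mutant level, at 85.5 ± 39.3 CPM, and the difference between siblings and wildtypes did not pass the test (-0.96 ± 0.22, edgeR unadjusted p = 0.000521 and BH-adjusted p = 0.481).

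The other ligands did not pass between genotypes. dlc, a Delta ligand known in zebrafish from the somite clock and the dorsal aorta, ranged from 65.7 to 142 CPM in mutants, 56.4 to 96.5 in siblings and 63.3 to 126 in wildtypes, with wide overlap. Its log2 difference was 0.05 ± 0.18 between mutants and wildtypes and 0.42 ± 0.18 between mutants and siblings (edgeR BH-adjusted p = 0.859 and 0.0998). jag2b, a Jagged ligand, ranged from 106 to 175 CPM in mutants, 121 to 176 in siblings and 126 to 162 in wildtypes. Its differences of -0.11 ± 0.13 and -0.03 ± 0.13 from the same comparisons did not pass either (edgeR BH-adjusted p = 0.536 and 0.901).

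The receptors gave no call between genotypes. NOTCH1 row A had 422, 623 and 632 CPM in mutants with CA-Stat3 and 709.7 and 903 with WT-Stat3, siblings ranged from 569 to 822 CPM, and wildtypes from 607 to 857. NOTCH1 row B ranged from 241 to 509 CPM in mutants, 360.1 to 482 in siblings and 367 to 475 in wildtypes. Over both constructs the genotypes overlapped in both rows, and the log2 differences of mutants from wildtypes were -0.20 ± 0.14 and -0.17 ± 0.14 (edgeR BH-adjusted p = 0.314 and 0.385). In row B the mutants with CA-Stat3 lay below every library of the other groups. Their difference from wildtypes with CA-Stat3 did not pass (-0.38 ± 0.18, edgeR unadjusted p = 0.0433 and BH-adjusted p = 0.157). notch3, a receptor that mural cells also use, had 195, 215 and 236 CPM in mutants with CA-Stat3 and 264 and 366 with WT-Stat3, against 254.5 to 442 CPM in siblings and 193 to 297 CPM in wildtypes. The genotypes overlapped over both constructs. With CA-Stat3 each mutant library lay below each sibling and wildtype library, and with WT-Stat3 each sibling library lay above each wildtype library. Its difference was 0.06 ± 0.16 from wildtypes and -0.36 ± 0.16 from siblings (edgeR BH-adjusted p = 0.824 and 0.114). Without sibling CA-Stat3 replicate 1 the difference from siblings became -0.46, with an edgeR BH-adjusted p of 0.0334.

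The sheddases split. adam10b, a copy of the protease that makes the ligand-dependent cut, had 19.5, 16.9 and 16 CPM in mutants with CA-Stat3 and 21.3 and 19.5 in mutants with WT-Stat3. Siblings ranged from 33.9 to 39.9 CPM and wildtypes from 30.6 to 33.6 CPM, so the mutant libraries did not overlap the others and each genotype formed a narrow band. It fell by 0.76 ± 0.13 on the log2 scale relative to wildtypes and by 0.95 ± 0.13 relative to siblings (edgeR BH-adjusted p = 0.000418 and 7.85e-05). ADAM17 encodes a related protease that cuts tumour necrosis factor and can cut Notch. ADAM17 row A had 80.4, 148 and 166 CPM in mutants with CA-Stat3 and 168 and 146 with WT-Stat3, against 57.9 to 87.8 CPM in siblings and 59.3 to 84.2 CPM in wildtypes. Mutant CA-Stat3 replicate 1 lay within the range of the others and 4 mutant libraries lay above all of them. The row rose by 0.94 ± 0.18 over wildtypes and by 0.90 ± 0.18 over siblings (edgeR BH-adjusted p = 0.00127 and 0.00206). ADAM17 row B, at 6.08 to 11.9 CPM in mutants, 5.78 to 10.2 in siblings and 7.24 to 13.1 in wildtypes, did not pass (-0.46 ± 0.25 from wildtypes, edgeR BH-adjusted p = 0.182).

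RBPJ, the DNA-binding partner of the cut receptor, had 8.07, 6.62 and 6.63 CPM in mutants with CA-Stat3 and 11.8 and 12.6 CPM in mutants with WT-Stat3. Siblings had 22.5, 28.4 and 28.4 CPM with CA-Stat3 and 20.6 and 19.5 CPM with WT-Stat3. Wildtypes had 24.4, 26.1 and 20.5 CPM with CA-Stat3 and 19.6 and 21.9 CPM with WT-Stat3. All mutant libraries lay below all others, and those with CA-Stat3 lay lowest. These levels rest on 31 to 56 counts in a mutant library and 107 to 222 counts in any other library. RBPJ fell by 1.25 ± 0.16 on the log2 scale relative to wildtypes and by 1.3 ± 0.16 relative to siblings (edgeR BH-adjusted p = 3.61e-05 and 3.24e-05). A second row with the symbol RBPJ, ENSDARG00000003398, chosen after its values were seen, had 28.6 to 40.8 CPM in mutants, 35.5 to 47.2 in siblings and 31.6 to 45.7 in wildtypes, and did not pass (-0.16 ± 0.15 from wildtypes, edgeR BH-adjusted p = 0.445).

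hey2, the repressor that Notch switches on in arteries, had 21.2, 68.8 and 73.5 CPM in mutants with CA-Stat3 and 66.8 and 89.2 CPM in mutants with WT-Stat3. Siblings had 13.5, 26.8 and 17.2 CPM with CA-Stat3 and 37.1 and 21.7 CPM with WT-Stat3. Wildtypes had 19.6, 23.2 and 26.6 CPM with CA-Stat3 and 37.4 and 22.2 CPM with WT-Stat3. The same library as in ADAM17 row A, mutant CA-Stat3 replicate 1, stood among the others while 4 mutant libraries stood far above. hey2 rose by 1.31 ± 0.30 over wildtypes and by 1.45 ± 0.30 over siblings (edgeR BH-adjusted p = 0.00408 and 0.00242), and without that library by 1.47 ± 0.23 and 1.62 ± 0.23 (0.000235 and 0.000122). Relative to wildtypes this target thus ran opposite to dll4 and to the listed RBPJ row. Relative to siblings it ran opposite to that RBPJ row, while dll4 did not pass (-0.06 ± 0.22, edgeR BH-adjusted p = 0.872). The ephrin-B2 rows did not separate the genotypes: EFNB2 row A ranged from 63.4 to 115 CPM in mutants, 60.2 to 89.7 in siblings and 68.3 to 104 in wildtypes, and row B from 11.1 to 24.4 CPM in mutants, 10.02 to 15.3 in siblings and 12.7 to 20.8 in wildtypes. Their log2 differences of mutants from wildtypes were 0.04 ± 0.17 and -0.09 ± 0.20 (edgeR BH-adjusted p = 0.875 and 0.772).

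**Figure D2:**
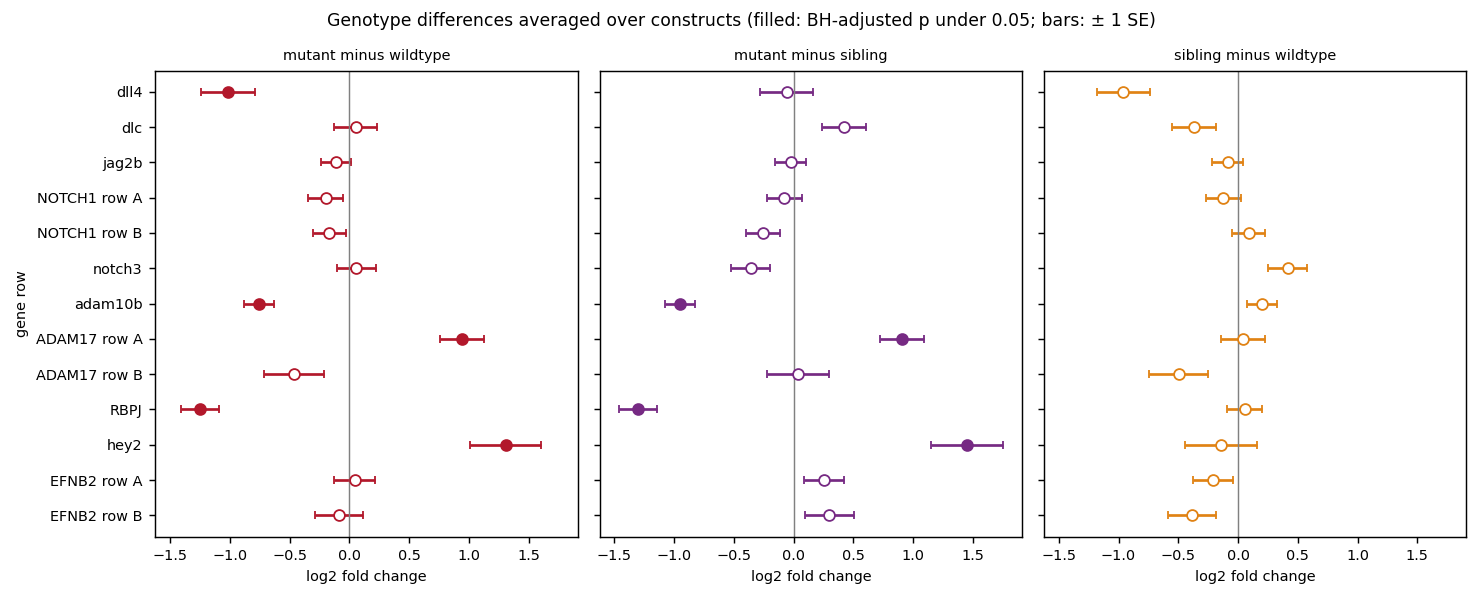
Log2 fold change (x axis) of each Notch row (y axis) with ± 1 SE, averaged over both constructs, in mutants minus wildtypes, mutants minus siblings and siblings minus wildtypes; filled points have an edgeR BH-adjusted p under 0.05. RBPJ and adam10b lie left of 0 and hey2 and ADAM17 row A right of 0 in both mutant panels, while dll4 lies near -1 against wildtypes and near 0 against siblings.

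Within each construct, the group differences of mutants from wildtypes held the same directions for these 5 rows. Single libraries did not all do so. Mutant CA-Stat3 replicate 1 lay within the range of wildtypes with CA-Stat3 in hey2 (21.2 CPM) and in ADAM17 row A (80.4 CPM). With WT-Stat3, where each group had 2 libraries, 3 of 13 rows passed in mutants minus wildtypes (23.1%, beside 12.1% of all genes): dll4 fell by 1.27 ± 0.35, RBPJ fell by 0.77 ± 0.24 and ADAM17 row A rose by 1.0 ± 0.29 on the log2 scale (edgeR BH-adjusted p = 0.0271, 0.0491 and 0.0309). adam10b at -0.62 ± 0.20 and hey2 at 1.38 ± 0.46 did not pass (0.051 and 0.0618). DESeq2 called both (BH-adjusted p = 0.0462 and 0.0235) and limma voom called neither. With CA-Stat3, 4 of 13 rows passed (30.8%, beside 14.7% of all genes): RBPJ fell by 1.73 ± 0.20, adam10b fell by 0.88 ± 0.16, ADAM17 row A rose by 0.88 ± 0.23 and hey2 rose by 1.23 ± 0.38 (edgeR BH-adjusted p = 4.56e-05, 0.00167, 0.017 and 0.038). dll4 at -0.77 ± 0.28 did not pass there (0.0799). It did pass with DESeq2 (BH-adjusted p = 0.0464), and in edgeR with no filter (0.00493) or with its own libraries only (0.0352). With limma voom it did not. The RBPJ call with WT-Stat3 was lost in 18 of the 22 alternatives run, among them RLE size factors, DESeq2, limma voom and the loss of any 1 of the 4 libraries (BH-adjusted p = 0.0504 to 0.386). ADAM17 row A with WT-Stat3 lost its call with limma voom and without any 1 of the 4 (BH-adjusted p = 0.0552 to 0.159). dll4 with WT-Stat3 lost its call with limma voom (BH-adjusted p = 0.0596), under a scaling to endothelial RNA (0.0636) and without wildtype replicate 1 (-0.98, 0.164), mutant replicate 1 (-1.40, 0.0543) or mutant replicate 2 (-1.2, 0.163). With CA-Stat3, hey2 lost its call without any 1 of the wildtype libraries or of mutant replicates 2 and 3 (edgeR BH-adjusted p = 0.0771 to 0.169), and ADAM17 row A without wildtype replicate 1 or 3 or mutant replicate 2 or 3 (0.0607 to 0.0968). Under the scaling to endothelial RNA, hey2, ADAM17 row A and adam10b with CA-Stat3 lost their calls (edgeR BH-adjusted p = 0.1, 0.0993 and 0.0663).

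Between siblings and wildtypes edgeR called 0 of the 13 rows, beside 0.0% of all genes, with 2 rows at an unadjusted p under 0.05. DESeq2 called 1 row, dll4 (-0.96, BH-adjusted p = 0.0341), among 13 genes of the whole table, edgeR with no filter also called dll4 (BH-adjusted p = 0.000295), and limma voom called 0 rows. The other row at an unadjusted p under 0.05 was notch3, at 0.42 ± 0.16 (edgeR BH-adjusted p = 0.492). adam10b was higher in every sibling library than in every wildtype library, with a log2 difference of 0.20 ± 0.12 that did not pass (edgeR BH-adjusted p = 0.626).

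The active construct was set against the wildtype form. Whether CA-Stat3 raised Stat3 activity over WT-Stat3 in these cells was not tested. Of 15 Stat3 target and feedback rows, edgeR called 0 in this comparison (median log2 difference -0.05). Those rows summed to 2061 to 2431 CPM with CA-Stat3 and 2172 to 2484 with WT-Stat3 in mutants. The same ranges were 2558 to 3241 and 3060 to 3510 in siblings, and 3117 to 3696 and 4182 to 4548 in wildtypes. dll4 averaged 72.9 ± 16.2 CPM in mutants with CA-Stat3 and 94.4 ± 6.80 with WT-Stat3, 61.0 ± 27.7 in siblings with CA-Stat3 and 122 ± 12.5 with WT-Stat3, and 124 ± 35.1 in wildtypes with CA-Stat3 and 228 ± 68.9 with WT-Stat3 (SD, n = 3 and 2 in each genotype). In all 3 genotypes each CA-Stat3 library lay below each WT-Stat3 library of that genotype, which was also so for jag2b. How many of all genes showed the same order was not counted, so it is no result about these rows. Averaged over genotypes, the log2 difference was -0.75 ± 0.18 for dll4, -0.47 ± 0.15 for dlc, -0.31 ± 0.10 for jag2b, -0.32 ± 0.12 for NOTCH1 row A and -0.25 ± 0.11 for NOTCH1 row B, the 5 rows with an unadjusted p under 0.05. None passed the adjustment in edgeR (BH-adjusted p = 0.19, 0.253, 0.26, 0.283 and 0.37, and 0.0% of all genes called). DESeq2 called dll4 alone among the 13 rows (BH-adjusted p = 0.0183) among 116 genes of the table, and limma voom called 0 rows. The difference was negative for all 13 rows (median -0.22, beside 0.04 over all genes), of which 10 turned positive when libraries were scaled to endothelial RNA, a scaling that moved the median of all genes to 0.45.

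Within single genotypes edgeR called 0 of 13 rows for the construct, beside 0.0% of all genes in each. Rows at an unadjusted p under 0.05 numbered 4 in mutants, 1 in siblings and 1 in wildtypes. The 4 rows in mutants were RBPJ at -0.76 ± 0.23, NOTCH1 row B at -0.58 ± 0.19, notch3 at -0.55 ± 0.23 and NOTCH1 row A at -0.53 ± 0.20 (edgeR BH-adjusted p = 0.375, 0.375, 0.437 and 0.405). The row in siblings and in wildtypes was dll4, at -1.0 ± 0.31 and -0.88 ± 0.31 (0.999 and 0.998). RBPJ went the other way in siblings, at 0.39 ± 0.21, and in wildtypes, at 0.19 ± 0.21. DESeq2 and limma voom also called 0 rows for the construct in each genotype. In mutants, however, DESeq2 gave no adjusted p for most of the 13 rows, so those could not be called. The test of whether the construct difference itself differed between mutants and wildtypes called 0 of 13 rows (0.0% of all genes, 1 row at an unadjusted p under 0.05), and between mutants and siblings also 0 (0.0% of all genes, 2 rows), and DESeq2 and limma voom called 0 rows in both.

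**Figure D3:**
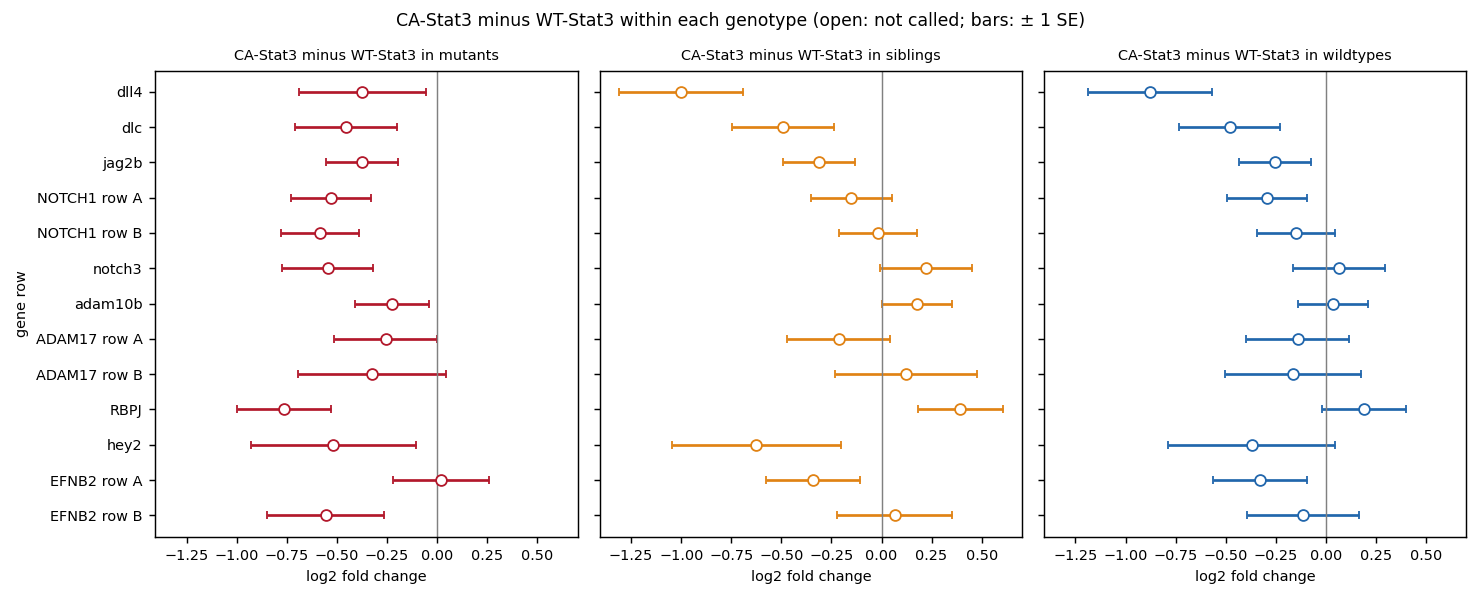
Log2 fold change of CA-Stat3 minus WT-Stat3 (x axis) with ± 1 SE for each Notch row (y axis) within mutants, siblings and wildtypes; open points did not pass the edgeR test. In mutants 12 of 13 points lie below 0, and RBPJ, lowest in mutants at -0.76, lies above 0 in siblings and wildtypes.

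The level of endothelial RNA itself varied between libraries. Summed over 16 pan-endothelial rows, it was 3641, 5681 and 6402 CPM in mutants with CA-Stat3 and 6000 and 5447 with WT-Stat3, 4035, 3839 and 2420 in siblings with CA-Stat3 and 5366 and 4586 with WT-Stat3, and 4173, 4845 and 4721 in wildtypes with CA-Stat3 and 6666 and 5602 with WT-Stat3. Mutant CA-Stat3 replicate 1, where every Notch row but adam10b, ADAM17 row B and RBPJ was lowest among mutants, was also lowest among mutants in this sum. Libraries were therefore also scaled by the summed counts of that list, an alternative chosen after seeing the data, which shifted the median of all genes to -0.42 in mutants minus siblings, 0.39 in siblings minus wildtypes and 0.45 in CA-Stat3 minus WT-Stat3, and to -0.04 in mutants minus wildtypes. On that scale the same 5 rows passed in mutants minus wildtypes, where 16% of all genes were called: dll4 at -1.04 ± 0.22, RBPJ at -1.26 ± 0.27, adam10b at -0.76 ± 0.24, ADAM17 row A at 0.88 ± 0.19 and hey2 at 1.24 ± 0.27 (edgeR BH-adjusted p = 0.0031, 0.00377, 0.0398, 0.00311 and 0.00357). Against siblings 25.3% of all genes were called on that scale. RBPJ, adam10b and hey2 passed again there at -1.70 ± 0.28, -1.35 ± 0.25 and 1.0 ± 0.27. In addition notch3 at -0.80 ± 0.25 and NOTCH1 row B at -0.70 ± 0.22 passed, beside the shift of -0.42. ADAM17 row A at 0.46 ± 0.19 did not pass (edgeR BH-adjusted p = 0.0721). For the construct, dll4 lay at -0.39 ± 0.18, hey2 at -0.14 ± 0.22 and dlc at -0.08 ± 0.19, and the other 10 rows were positive, up to 0.42 ± 0.20 in adam10b, so that all 13 lay below the shifted median of all genes.

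**Figure D4:**
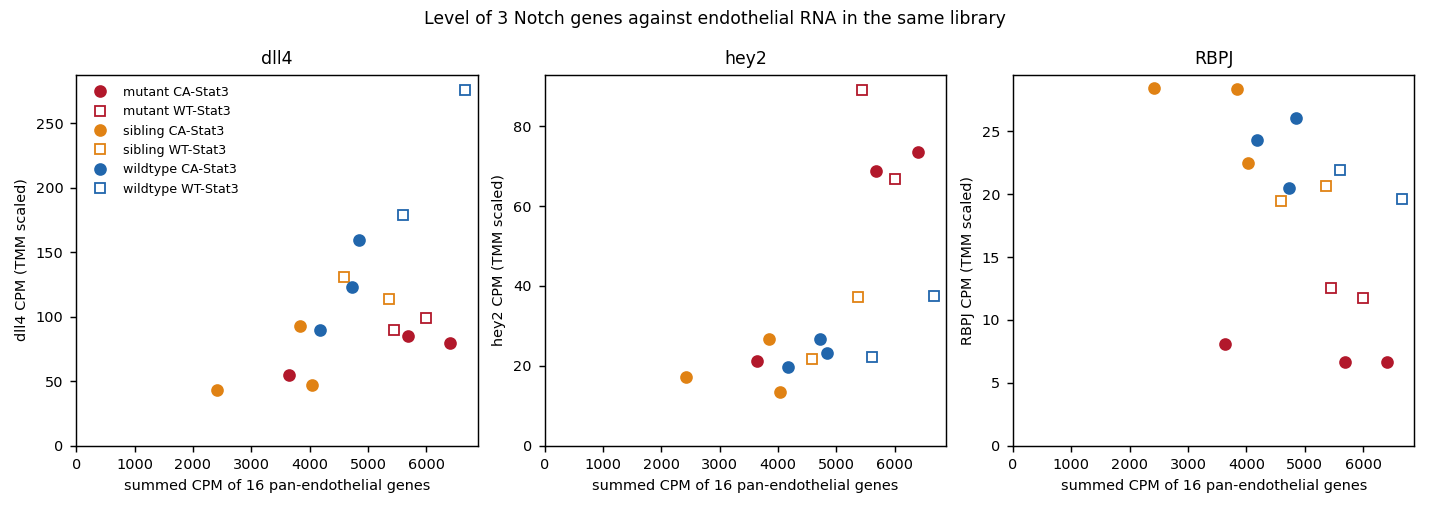
CPM of dll4, hey2 and RBPJ (y axes, starting at 0) against the summed CPM of 16 pan-endothelial rows in the same library (x axis), 1 point per library, coloured by genotype with filled circles for CA-Stat3 and open squares for WT-Stat3. Among libraries with WT-Stat3, mutants with 5447 and 6000 CPM of endothelial RNA have less dll4 and RBPJ and more hey2 than wildtypes with 5602 and 6666 CPM.

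The rest of the pathway was read from lists of ligands, receptors, processing enzymes, nuclear cofactors, turnover factors and target repressors, 79 rows in all, of which 65 were tested. Of these, 5 rose and 10 fell in mutants relative to wildtypes (median log2 difference -0.13, beside 28.7% of all genes called), and 7 rose and 15 fell relative to siblings (median -0.13, beside 26.2%). Without mutant WT-Stat3 replicate 2, the shallowest library, the counts were 5 and 9, and 6 and 11. For the construct, edgeR called 0 of the 65, with 8 at an unadjusted p under 0.05, and DESeq2 and limma voom also called 0.

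Among 6 other ligands tested, jag2a rose to 22.2 ± 4.67 CPM in mutants, against 7.11 ± 1.52 in siblings and 10.6 ± 2.81 in wildtypes (log2 difference 1.06 ± 0.21 from wildtypes, edgeR BH-adjusted p = 0.00152). dlb, a Delta ligand of neural and somite tissue, fell to 27.8 ± 13.2 CPM in mutants, against 83.2 ± 20.7 in siblings and 51.7 ± 20.3 in wildtypes, and jag1a fell to 8.51 ± 3.93 CPM in mutants, against 17 ± 4.92 in siblings and 14.3 ± 4.84 in wildtypes (edgeR BH-adjusted p against wildtypes = 0.0438 and 0.0473). Without mutant WT-Stat3 replicate 2, dlb and jag1a lost these calls, at log2 differences of -0.73 and -0.83 from wildtypes. The DLL1 rows, given with the arterial rows below, were not among these 6. The remaining receptor, notch2, fell to 99.6 ± 17.3 CPM in mutants, against 158 ± 17.6 in siblings and 156 ± 28.8 in wildtypes (-0.62 ± 0.14 from wildtypes, edgeR BH-adjusted p = 0.00425).

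Of 16 processing genes tested, POFUT2 was the one called relative to wildtypes. POFUT2, an O-fucosyltransferase of the endoplasmic reticulum that modifies thrombospondin repeats rather than the Notch repeats, was 11 ± 1.54 CPM in mutants, 4.14 ± 1.33 in siblings and 3.71 ± 0.57 in wildtypes (1.55 ± 0.26 from wildtypes, edgeR BH-adjusted p = 0.000434). POGLUT1, which glucosylates Notch repeats, fell relative to siblings (3.07 ± 1.61 CPM in mutants against 7.05 ± 1.76, edgeR BH-adjusted p = 0.0169). Without mutant WT-Stat3 replicate 2 it also fell relative to wildtypes (-1.34 ± 0.38, edgeR BH-adjusted p = 0.0201). adam10a, the other zebrafish copy of ADAM10, rose relative to siblings, to 263 ± 41.9 CPM in mutants against 196 ± 24.8 (0.43 ± 0.14, edgeR BH-adjusted p = 0.0297), and was 227 ± 8.27 in wildtypes, a difference that did not pass (0.22 ± 0.14, edgeR BH-adjusted p = 0.239). Without mutant WT-Stat3 replicate 2 the adam10a difference from siblings did not pass either (0.37 ± 0.15, edgeR BH-adjusted p = 0.0996).

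Of 19 nuclear factors tested, 2 rose and 4 fell relative to wildtypes. SNW1, a splicing factor that also binds the Notch complex, rose to 115 ± 21.2 CPM in mutants, against 66.8 ± 4.91 in siblings and 67.6 ± 4.78 in wildtypes, and MAML3, a Mastermind coactivator, rose to 118 ± 32.2 CPM in mutants, against 63.6 ± 10.8 in siblings and 66.5 ± 12.8 in wildtypes (edgeR BH-adjusted p against wildtypes = 0.000607 and 0.00246). The acetyltransferase KAT2A fell to 24 ± 1.04 CPM in mutants, against 34.1 ± 6.35 in siblings and 36 ± 5.18 in wildtypes (edgeR BH-adjusted p against wildtypes = 0.00717). The corepressor genes ctbp2a and CTBP1 also fell, by 0.72 ± 0.20 and 0.65 ± 0.22 on the log2 scale. CTBP1 lost its call without mutant WT-Stat3 replicate 2 (-0.57 ± 0.25, edgeR BH-adjusted p = 0.124).

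Of 9 turnover and feedback genes tested, FBXW7, whose product marks the Notch intracellular domain for decay, rose to 120.0 ± 11.9 CPM in mutants, against 77.1 ± 9.09 in siblings and 79.3 ± 8.67 in wildtypes (0.59 ± 0.12 from wildtypes, edgeR BH-adjusted p = 0.00186). Both NRARP rows, a Notch target that feeds back on the complex, fell: ENSDARG00000018958 was 12.2 ± 3.65 CPM in mutants, 22 ± 3.74 in siblings and 25 ± 4.2 in wildtypes, and ENSDARG00000091419 was 78.1 ± 24.6 CPM in mutants, 117 ± 27.4 in siblings and 129 ± 21.7 in wildtypes (edgeR BH-adjusted p against wildtypes = 0.00198 and 0.016). DTX4, a ubiquitin ligase of the pathway, fell relative to siblings (17.4 ± 4.06 CPM in mutants against 36.0 ± 17.2, edgeR BH-adjusted p = 0.0313). Relative to siblings 3 of the 9 fell, and 1 without mutant WT-Stat3 replicate 2. There DTX4 (-0.91 ± 0.37) and NRARP ENSDARG00000018958 (-0.69 ± 0.23) did not pass (edgeR BH-adjusted p = 0.1 and 0.0539). Of 14 rows tested from the list of target repressors of the Hes and Hey type, 1 fell relative to wildtypes and none rose. Whether each of them answers to Notch in these cells was not tested. The row that fell, HES6 (ENSDARG00000007097), was 1.99 ± 2.06 CPM in mutants, with 1 library at 0, 9.51 ± 4.84 in siblings and 6.61 ± 1.23 in wildtypes (edgeR BH-adjusted p against wildtypes = 0.00132). HES6 is known mainly from neural tissue, and neural markers moved the same way in these libraries. The part of neural cells in the HES6 level was not tested. hey2 is of the same repressor class, and none of these 14 rose with it relative to wildtypes or to siblings, where 2 fell. All 14 together summed to only 75.1 to 92.4 CPM in mutants and 85.7 to 115 in wildtypes.

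**Figure D5:**
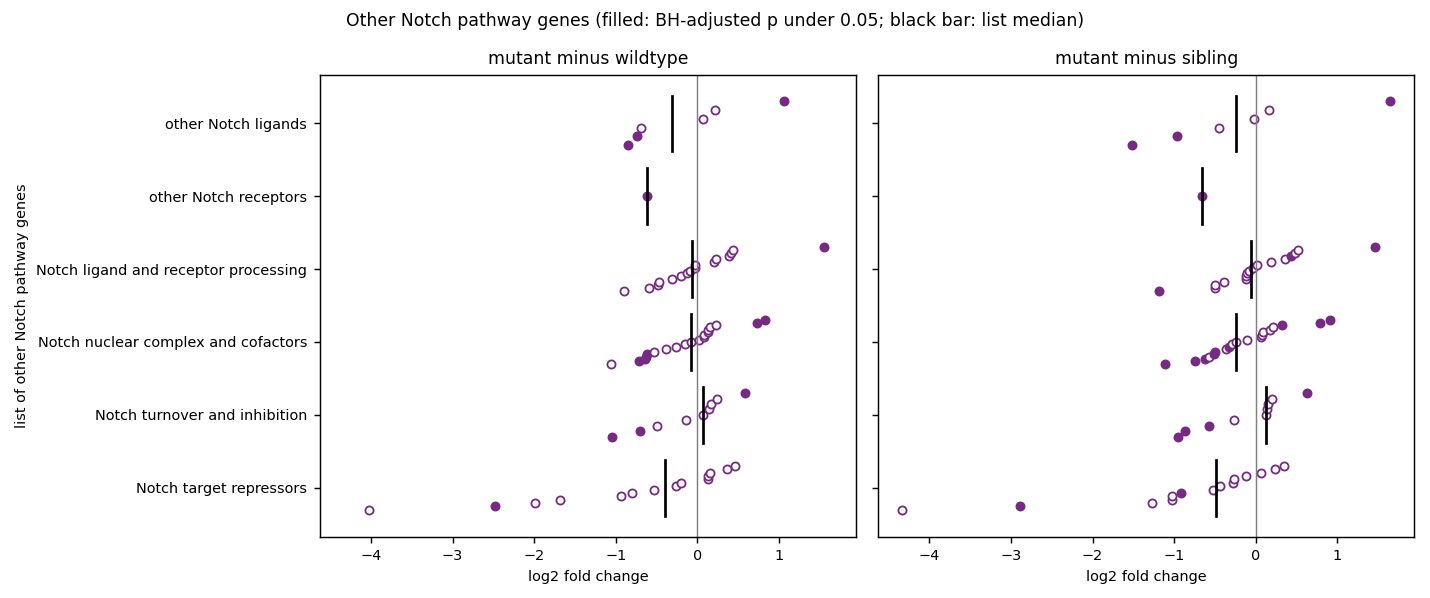
Log2 fold change (x axis) of the other Notch pathway genes tested, 1 point per row, grouped by list (y axis), in mutants minus wildtypes and mutants minus siblings; filled points have an edgeR BH-adjusted p under 0.05 and black bars are list medians. The filled points lie on both sides of 0 in 4 of the 6 lists in mutants minus siblings.

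Markers of other cells and of vessel identity were also read, beside 28.7% of all genes called in mutants minus wildtypes. Relative to wildtypes, the arterial, haemogenic and pan-endothelial lists had shares called near or below that. Such shares are no result about those lists as sets. Of 27 arterial rows tested, 2 rose and 6 fell in mutants relative to wildtypes (median -0.34), among them foxc1b (5.57 ± 2.98 CPM in mutants, 17.5 ± 2.99 in wildtypes) and both DLL1 rows (21.4 ± 4.89 and 18.6 ± 2.5 CPM in mutants, 42.2 ± 11.4 and 40 ± 8.39 CPM in wildtypes), while TBX20 rose (37 ± 16.7 CPM in mutants, 15.6 ± 3.72 in wildtypes). Neural and mesenchymal markers, given below, also fell. The parts of such cells in the foxc1b and DLL1 levels were not tested. Relative to siblings 6 arterial rows rose and 5 fell, beside 26.2% of all genes called. Without mutant WT-Stat3 replicate 2 the count that rose was 2. Of 11 venous rows, 1 rose and 4 fell relative to wildtypes, led by MRC1 (233 ± 42.5 CPM in mutants, 825 ± 220.0 in wildtypes). DAB2 rose (307 ± 84 CPM in mutants, 142 ± 16.5 in wildtypes). Of 15 rows of haemogenic endothelium, the layer whose fate depends on Notch, 12 were not called relative to wildtypes, 2 rose and 1 fell (median 0.07). The row that fell lost its call without mutant WT-Stat3 replicate 2. The rows that rose were GFI1B (83 ± 24.2 CPM in mutants, 12.4 ± 5.41 in wildtypes) and TAL1 (75.1 ± 18.8 CPM in mutants, 28.9 ± 8.02 in wildtypes). Erythroid markers, given below, rose in the same comparison. The part of erythroid cells in the GFI1B and TAL1 levels was not tested. Relative to siblings 6 of the 15 haemogenic rows rose and 0 fell, beside 26.2% of all genes called. Their median was 0.53, and 0.47 without mutant WT-Stat3 replicate 2. The haemogenic rows summed to 410 to 627 CPM in mutants, 225 to 408 in siblings and 354 to 418 in wildtypes. Of 16 pan-endothelial rows, 2 rose and 2 fell relative to wildtypes (1 and 2 without mutant WT-Stat3 replicate 2), and 7 rose and 1 fell relative to siblings, again beside 26.2% of all genes called.

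Neural markers were lower in mutants, with 9 of 20 fallen and none risen relative to wildtypes (5 without mutant WT-Stat3 replicate 2), NEUROD4 for example at 1.86 ± 1.05 CPM in mutants and 12.7 ± 4.33 in wildtypes. Their summed level was 304 to 579 CPM in mutants, 736 to 1060 in siblings and 431 to 718 in wildtypes. Macrophage and neutrophil markers fell in 16 of 18 tested rows and mural and mesenchymal markers in 11 of 13, and erythroid markers rose in 9 of 12 (6 without mutant WT-Stat3 replicate 2). Among the remaining lists, 1 of 9 muscle rows rose and 1 fell (0 without mutant WT-Stat3 replicate 2), 2 of 7 notochord rows fell, 1 of 11 pronephros rows rose and 2 fell, 4 of 10 epidermis rows fell (2 without that library), and 1 of 15 Stat3 target and feedback rows rose and 8 fell, with SOCS3 (ENSDARG00000026611) at 83 ± 28.4 CPM in mutants and 252 ± 18.8 in wildtypes. Each count against wildtypes stands beside 28.7% of all genes called, and their part in the levels of the Notch genes was not tested.

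Over the 15 libraries, the genes whose log2 CPM followed dll4 most closely, of 14245 searched, were ADGRL3 (Pearson r = 0.961), EDNRA (0.954) and PIK3C2A (0.953), as a description of libraries that share groups. ADGRL3 had 78.3 to 108 CPM in mutants, 69.7 to 128 in siblings and 103 to 181 in wildtypes. Among the 13 rows themselves, adam10b and RBPJ ran together most closely (r = 0.951), followed by ADAM17 row A and hey2 (0.90) and the NOTCH1 rows (0.887), and adam10b and ADAM17 row A were the most opposed pair (-0.833), again over 15 libraries that fall into groups.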

How the data were processed

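Each of the 15 libraries was a column of 1 deposited table of raw counts per Ensembl gene, whole numbers made by the authors without normalization. Build GRCz10 and the programs featureCounts, STAR 2.4.2a, DESeq2, Trim Galore and Picard are listed, without roles or order, per the submitters' processing notes. The annotation release, strandedness and handling of duplicate or multi-mapping reads were not given in the sources used here. Counts of close paralogs, of overlapping or antisense genes and of rows that share a symbol are therefore uncertain. No molecular identifiers are named in the labels. Groups and replicate numbers came from the sample titles, and 0 columns lacked a sample. Symbols came from a gene name table that named 26269 of 32105 rows. No sequences or coordinates were used.

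Counts were analysed in R 4.3.3 with edgeR 4.0.16. filterByExpr on the groups (minimum count 10, minimum total 15) kept 18020 of the 27820 genes that had a count. After TMM scaling, a model with a mean for each group (9 residual degrees of freedom) was fitted to all libraries together, and glmQLFTest gave 11 comparisons with BH adjustment over all genes and a threshold of 0.05. The SE of a log2 fold change was taken as its size divided by the root of the F statistic. CPM values are TMM-scaled, and log2 CPM for correlations used a prior count of 2. Replicates of a group had a Spearman correlation of 0.918 to 0.967 over genes. The fit was tested on simulated data with known changes.

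All 13 rows were described in every comparison. Of the other Notch lists up to 4 called genes with the smallest p were eligible to be named, and of the other lists up to 3. ctbp2a, CTBP1 and TBX20 fell outside this rule and were chosen after their values were seen. A gene that the rule would name is not reported here. SF3B1 and kdrl were named as checks, and the 3 genes most like dll4 were searched among genes with a symbol and a mean log2 CPM of at least 1. The members and all gene lists were chosen with earlier results of these data known.

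Alternatives were RLE size factors, no filter, DESeq2 1.42.0, limma 3.58.1 (voom with quality weights), a replicate block, own libraries only and the omission of single libraries. Scaling to the summed pan-endothelial counts, and list counts without mutant WT-Stat3 replicate 2, were added after seeing the data.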

Additional observations from a re-analysis of the deposited data

Results flagged for a closer look

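RBPJ drew attention because each mutant library with CA-Stat3 lay below each mutant library with WT-Stat3, while each sibling library with CA-Stat3 lay above each sibling library with WT-Stat3. Its log2 difference of CA-Stat3 from WT-Stat3 was -0.76 in mutants and 0.39 in siblings, a gap of -1.16 ± 0.32. The test of that gap gave an unadjusted p of 0.00204 and an edgeR BH-adjusted p of 0.876, so it did not pass over all genes. adam10b showed the same arrangement, at -0.23 in mutants and 0.18 in siblings, a gap of -0.40 ± 0.26 (edgeR unadjusted p = 0.135, BH-adjusted p = 0.897). How many of all genes showed this arrangement was not counted, so it is no result about these rows.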

How the results depend on the processing

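The 5 rows called in mutants minus wildtypes (dll4, adam10b, ADAM17 row A, RBPJ and hey2) stayed called in the same direction under each of the 22 alternatives run, including DESeq2, limma voom, the replicate block and the loss of any single library. Over these, the log2 difference ran from -1.20 to -0.89 for dll4, from -1.34 to -1.21 for RBPJ, from -0.83 to -0.72 for adam10b, from 0.84 to 1.04 for ADAM17 row A and from 1.1 to 1.48 for hey2. In mutants minus siblings the 4 called rows stayed called except ADAM17 row A, at 0.46 under pan-endothelial scaling (edgeR BH-adjusted p = 0.0721). dlc gained a call without mutant CA-Stat3 replicate 1 (0.50, edgeR BH-adjusted p = 0.0392), and notch3 without sibling CA-Stat3 replicate 1 (-0.46, 0.0334).

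Counts of called rows moved by over 1.5 times in 4 comparisons, and in mutants minus siblings from 4 to 5 without sibling or mutant CA-Stat3 replicate 1 and under pan-endothelial scaling. In siblings minus wildtypes, 0 became 1 with no filter and 1 with DESeq2. In CA-Stat3 minus WT-Stat3, 0 became 2 with no filter and 1 with DESeq2, and for dll4 the edgeR BH-adjusted p was 0.000295 and 0.000463 with no filter in these comparisons. In mutants minus wildtypes with WT-Stat3, 3 became 0 with limma voom, and 0 to 5 over the fits that leave out 1 library each. With CA-Stat3, 4 became 1 under pan-endothelial scaling, and 2 to 5 when 1 library was left out. The pan-endothelial scaling called 5.95% of all genes in mutants minus wildtypes with CA-Stat3, where the main fit called 14.7%. The causes were not tested. No value reversed past the threshold. Where a left-out library left a group with 1 library, that library was assumed to vary like the other groups.

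With the replicate block, mutants minus wildtypes gave 5 called rows and mutants minus siblings 4, and with WT-Stat3 the 3 became 4, adam10b being added (-0.63, edgeR BH-adjusted p = 0.0463). Of 33 pairs of libraries that share a number across groups, 9 had a correlation of their deviations over 0.1 (median 0.083, -0.148 to 0.336). Of 60 pairs with other numbers, 5 did (median -0.028, -0.392 to 0.392). Pairs that share a number thus leaned higher, though the ranges overlapped. The main fit did not pair the libraries. DESeq2 gave no adjusted p for 9 of the 13 rows in CA-Stat3 minus WT-Stat3 in mutants. Depth limits ADAM17 row B and RBPJ most, which had as few as 28 and 31 counts in a library.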
